A study of Mus musculus with 12 samples.

Results

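The set consists of 7 genes of the 55487 in the count tables, namely Necab1, A830018L16Rik, Chml, Ide, Mir124a-1hg, Rnf122 and Dkkl1. They were chosen by their fold change and test between Auts2 knockout and wild-type forebrain at postnatal day 0 (P0), and because they do not lie on chromosome 5, where Auts2 itself lies. The P0 difference between knockout and control therefore chose them, and their P0 values are given as a description with no test. Each symbol matched 1 Ensembl identifier, and all 7 genes passed the filter on low counts at both ages.

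Auts2 encodes a protein of developing neurons that acts in the nucleus with a Polycomb complex on transcription and in the cytoplasm on the actin skeleton. RNA was sequenced from male mice in 4 groups of 3. At P0 the tissue was forebrain, from Auts2-ex7 knockouts carrying Cmv-cre, which recombines early in the embryo and so in nearly all tissues, and from wild-type littermates on the BL6 background. At P14 the tissue was hippocampus, from Auts2-ex7 knockouts carrying Nes-cre, which recombines in the progenitors of neurons and glia, and from mice labelled auts2-ex7-fl-het, called flox-het here. The labels do not say whether the flox-het mice carry Nes-cre. Age, tissue, Cre line and kind of control thus differ together between the P0 and P14 comparisons, and their effects cannot be told apart. The labels number individual mice and give no litters. Within a group, replicate numbers follow the order of the records and pair no mice.

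The 7 genes have unrelated roles. Necab1 is a calcium-binding protein of neurons with EF-hand domains, the loops by which calmodulin and calbindin hold calcium. Chml and Ide act on other proteins: Chml is a Rab escort protein, which presents Rab GTPases for the lipid attachment that lets them sit on membranes, and Ide is the insulin-degrading enzyme, a zinc peptidase that cuts insulin and amyloid-beta. Rnf122 is a membrane-bound RING ubiquitin ligase. Mir124a-1hg is the long noncoding host transcript of a miR-124 gene, the microRNA that is abundant in neurons and holds down non-neuronal transcripts. Dkkl1 is a secreted relative of the Dickkopf Wnt inhibitors, best known from testis. A830018L16Rik is named by its clone, and no role is given for it here.

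Libraries held 11247150 to 16796797 counted reads at P0 and 16830720 to 23340621 at P14. At P0 147 of 16176 tested genes passed an adjusted p of 0.05 (edgeR's quasi-likelihood test, Benjamini-Hochberg), 23 on chromosome 5 and 124 elsewhere. That count fell to 1, 15, 2 and 1 without knockout replicates 1 and 2 and wild-type replicates 1 and 2, and rose to 775 and 249 without knockout and wild-type replicate 3. At P14 342 of 17208 genes passed, with 104 to 191 when any library but flox-het replicate 3 was left out and 1808 without that one. Auts2 counted over the whole gene does not measure exon 7: it was 161 to 181 CPM (counts scaled to library size) in P0 knockouts against 136 to 160 in wild type, and 75.1 to 92.8 in P14 knockouts against 97.3 to 110 in flox-het. Neither Auts2 difference passed (log2 fold change 0.16, edgeR adjusted p = 0.362, and -0.30, adjusted p = 0.111). The hindbrain markers Hoxa2, Hoxb2 and Hoxb3 had no count in any library, while forebrain markers summed to at least 211.8 CPM in each. In bulk tissue, fewer cells of a type and less RNA per cell cannot be told apart.

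Levels per kilobase of exon set the scale. In P0 wild-type forebrain, Necab1 was the highest of the 7 genes at 19.3 ± 1.82 RPKM (CPM divided by kilobases of exon; SD, n = 3), from 17.6 to 21.2. Ide at 13.1 ± 2.16 RPKM and Mir124a-1hg at 10.4 ± 0.753 came next, and their ranges overlapped. Chml followed at 4.84 RPKM, A830018L16Rik at 4.22, Dkkl1 at 2.27 and Rnf122 at 1.60, and no neighbours in this stretch of the order overlapped. In P14 flox-het hippocampus Mir124a-1hg led at 30.6 RPKM (29.2 to 32.8). Ide (13.8), Necab1 (12.5) and A830018L16Rik (11.8) formed a middle tier with overlapping ranges. Rnf122 (2.35) and Chml (2.23) overlapped below them, and Dkkl1 was last at 0.995.

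At P0, 5 genes were lower and 2 higher in the knockouts. Over all tested genes 0.909% passed at P0, 0.717% lower and 0.192% higher, and 21.8% had knockout and wild-type values that did not overlap (11.1% lower and 10.7% higher). All 7 genes passed and did not overlap, which is what they were picked for, so nothing is read from that count. The set is a selection: among the 124 genes off chromosome 5 that passed, 44 differed by at least as much on the log2 scale as its weakest member (0.62).

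**Figure D1:**
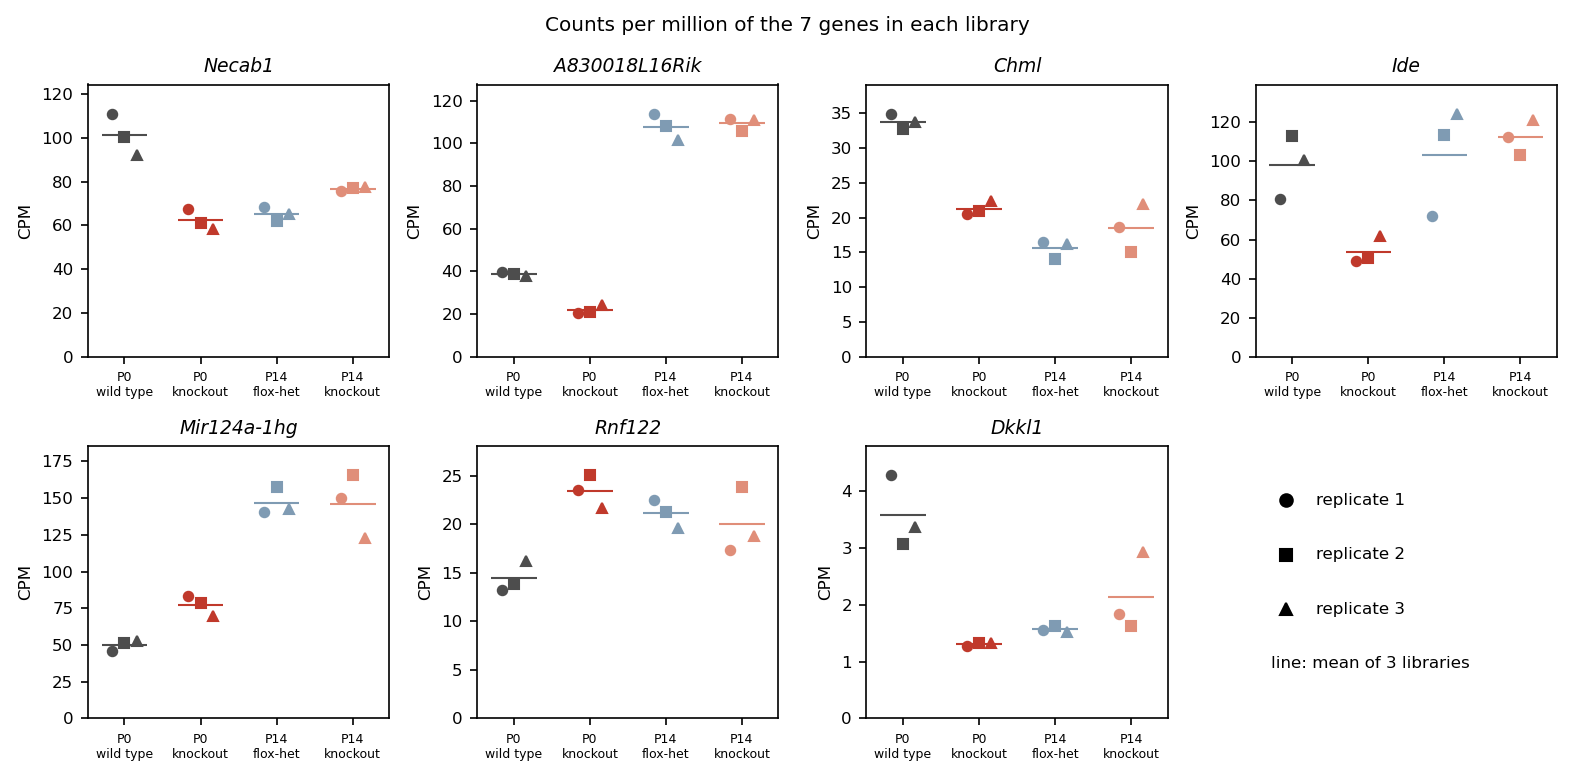
CPM (linear axis from 0) of each of the 7 genes in all 12 libraries, with a line at the mean of 3. At P0 the knockout points of 5 genes lie below all wild-type points and those of Mir124a-1hg and Rnf122 lie above, while at P14 the genotypes overlap for 5 of the 7.

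Necab1 (ENSMUSG00000040536) lies on the minus strand at chr4:14952245-15149794 (GRCm38). Its level in the P0 knockouts was 67.4, 61.0 and 58.4 CPM in replicates 1 to 3, against 111, 100.4 and 92.0 in wild type. The lowest wild-type library was well above the highest knockout, and the knockout mean was 61.6% of the control mean. The fitted log2 fold change was -0.70 (SE 0.09), and it stayed between -0.76 and -0.63 as each library was left out. In P14 hippocampus the direction was the other one: flox-het mice had 68.5, 62.2 and 65.1 CPM, and knockouts 75.9, 77.2 and 77.4. The P14 groups did not overlap, but the log2 fold change of 0.25 (95% interval 0.09 to 0.40) did not pass edgeR's test over all genes (adjusted p = 0.0958). It passed without flox-het replicate 3 (adjusted p = 0.0259) and in none of the other 5 fits that left out a library (adjusted p from 0.140 to 0.412). Part of Necab1 is shared with the antisense transcript Gm11837, which covers 410 of its exonic bases (7.83%). The library kit did not keep strand, so reads there cannot be assigned, and the unstranded count leaves them out. Necab1's 2 strand columns summed to 121% to 127% of its unstranded count in P0 knockouts and 118% to 119% in wild type, and to 119% to 122% in P14 knockouts and 118% to 133.8% in flox-het mice. On the larger strand column the log2 fold change was -0.60 at P0 and 0.14 at P14 (adjusted p = 0.533).

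EF-hand relatives of Necab1 were measured in the same libraries. Of the 19 other neuronal calcium-binding proteins listed, 2 fell at P0 and none rose, 15 of 19 had a negative log2 fold change, and the median was -0.28, against -0.00034 over all genes tested. An unadjusted p under 0.05 was reached by 11 of the 19 at P0 and 10 at P14. The shares over all genes were 16.1% and 15.2%. The list was made with earlier results of these data known. Calb1, calbindin, was 40.7, 36.7 and 47.1 CPM in P0 knockouts against 64.9, 66.7 and 56.0 in wild type (-0.59, edgeR adjusted p = 0.0252). Vsnl1, a neuronal calcium sensor, was 103, 90.3 and 107 CPM in P0 knockouts against 157, 168 and 119 (-0.57, adjusted p = 0.0499). Both calls were lost without any 1 of knockout replicates 1 and 2 and wild-type replicates 1 and 2, and Vsnl1's also without knockout replicate 3. The nearest relatives, Necab2 (-0.35, adjusted p = 0.302) and Necab3 (-0.40, adjusted p = 0.307), had negative values that did not pass. At P14 Calb1 fell again (-0.41, adjusted p = 0.0355), as did Calb2, calretinin (-0.44, adjusted p = 0.00927), and Kcnip2, a subunit of A-type potassium channels (-0.32, adjusted p = 0.0355). Necab2 was flat at P14 (0.02) and Necab3 positive (0.40, adjusted p = 0.0973), and the list's median was 0.02. Markers of dentate granule cells, some of which contain calbindin, summed to 241 to 270 CPM in P14 knockouts against 404 to 453 in flox-het mice, and 6 of those 7 markers fell. The part of that difference in the P14 calls was not tested. Leaving out a single library ended the Calb1 and Kcnip2 calls at P14 in 5 of 6 cases (all but flox-het replicate 3) and the Calb2 call without knockout replicates 1 or 3 or flox-het replicate 2.

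Chml (ENSMUSG00000078185) lies on the minus strand at chr1:175682237-175692901. P0 knockouts had 20.5, 20.9 and 22.4 CPM, and wild-type mice 34.9, 32.7 and 33.7. Values were tight in both groups and far apart, with the knockout mean at 63.0% of control and a log2 fold change of -0.67 (SE 0.10). At P14 the flox-het mice had 16.4, 14.1 and 16.2 CPM and the knockouts 18.6, 15.1 and 22.0. The P14 ranges overlapped (0.26, 95% interval -0.03 to 0.55, edgeR adjusted p = 0.392), and the difference was 0.12 without knockout replicate 3 and 0.39 without knockout replicate 2. The P0 value of -0.67 lies outside that interval, but it chose the gene and has its own error. The difference between the ages was not tested. Chml shares 461 exonic bases (6.61%) with Opn3, an opsin gene on the same strand with 21 to 59 counts per library. Opn3 did not pass at either age (-0.36, adjusted p = 0.553 at P0, and 0.73, adjusted p = 0.169 at P14).

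None of the genes listed around Rab prenylation passed: 0 of 13 at P0, with 1 at an unadjusted p under 0.05 (16.1% of all genes), and 0 of 14 at P14, with 2 (15.2% of all genes). Their median log2 fold change was 0.04 at P0 and -0.09 at P14. Chm, the other Rab escort protein, whose loss causes choroideremia, was -0.19 (adjusted p = 0.380) at P0 and -0.12 (adjusted p = 0.486) at P14. At P0 Chm averaged 49.6 CPM in knockouts and 56.3 in wild type.

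Ide (ENSMUSG00000056999) lies on the minus strand at chr19:37268743-37337852. P0 knockouts had 49.2, 50.4 and 61.8 CPM, and wild-type mice 80.7, 112.8 and 100.6. The knockout values were all lower, with wild-type replicate 1 the lowest of its group, and the log2 fold change was -0.87 (SE 0.12), with -0.99 to -0.76 as each library was left out. P14 flox-het mice had 72.1, 113.5 and 124.4 CPM and P14 knockouts 112.3, 103.2 and 121.4. Flox-het replicate 1 stood well under the other 5 P14 libraries, and the genotype difference was 0.13 (95% interval -0.41 to 0.66, edgeR adjusted p = 0.853). Without that library it was -0.08. Ide's P0 value, which chose the gene, lies outside the 95% interval.

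Btaf1, which encodes a factor that takes TATA-binding protein off DNA, lies 256 kb from Ide and was the only gene within 1 Mb of it that passed at P0 (17 tested). It was 53.1, 51.8 and 47.4 CPM in P0 knockouts and 67.0, 76.4 and 84.3 in wild type (-0.59, SE 0.10, edgeR adjusted p = 0.0202). Leaving out knockout replicate 1 or 2 or wild-type replicate 1 or 2 ended that call, with the log2 fold change between -0.67 and -0.49. At P14 Btaf1 was 35.9, 50.6 and 63.5 CPM in flox-het mice and 50.9, 50.2 and 53.9 in knockouts (0.05, adjusted p = 0.940). Wild-type replicate 1 and flox-het replicate 1 were thus the lowest control of their age for both genes. The genes between them did not pass at P0: Cpeb3 was -0.28 (adjusted p = 0.250) and March5 0.10 (adjusted p = 0.647). Kif11, on the far side of Ide, was -0.17 (adjusted p = 0.501). Genomic copy number at this locus was not measured in these data, and its part in the differences was not tested.

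**Figure D2:**
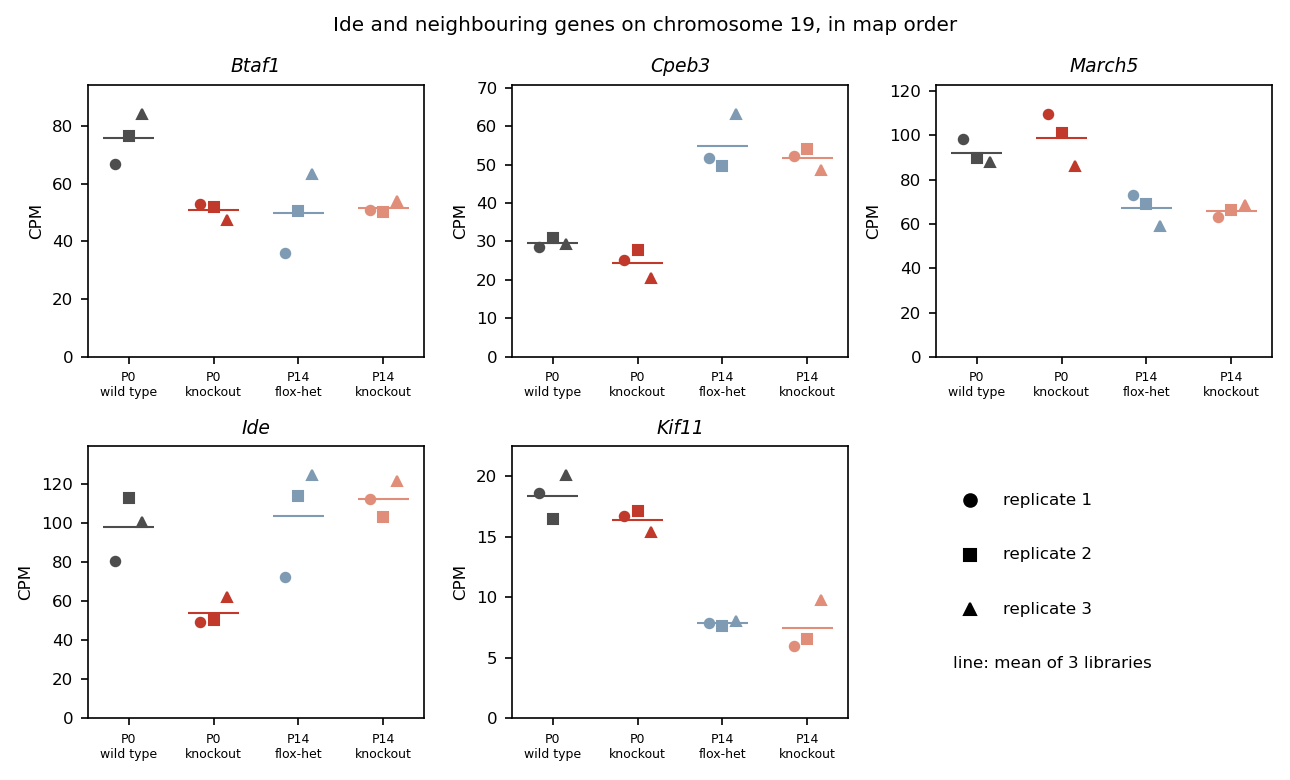
CPM (linear axis from 0) of Btaf1, Cpeb3, March5, Ide and Kif11 in map order along chromosome 19, by library, with a line at each group mean. Flox-het replicate 1 (circle) is the lowest P14 library for Btaf1 and for Ide, and P0 knockouts lie below wild type for both.

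The upstream windows of Ide and Btaf1, both lower in the P0 knockouts, are shown. Chml and Dkkl1, also lower, had windows that are not shown. Those shown are the 250 bases before each RefSeq start (GRCm38.p6), 5′ to 3′ on the gene's own strand, with capitals marking the matches to the motifs searched. For Ide the window is chr19:37334545-37334794 on the minus strand, inside the longer GENCODE gene interval, and for Btaf1 it is chr19:36925829-36926078 on the plus strand.
Ide: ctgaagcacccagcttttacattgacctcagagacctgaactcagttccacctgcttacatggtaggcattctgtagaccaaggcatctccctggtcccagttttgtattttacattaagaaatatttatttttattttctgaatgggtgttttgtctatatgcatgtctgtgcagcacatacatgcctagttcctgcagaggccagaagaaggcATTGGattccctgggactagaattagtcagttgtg
Btaf1: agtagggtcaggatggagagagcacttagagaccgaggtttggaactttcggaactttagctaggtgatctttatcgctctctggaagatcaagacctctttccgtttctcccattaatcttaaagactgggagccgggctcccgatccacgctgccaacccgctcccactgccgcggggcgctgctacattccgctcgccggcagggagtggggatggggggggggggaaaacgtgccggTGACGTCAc
The motifs searched on both strands were the cyclic AMP response element (TGACGTCA), the E-box (CACGTG), the CCAAT box (CCAAT), the GC box (GGGCGG), the TATA box (TATAAA) and the NRF1 motif. The Ide window holds ATTGG, which is CCAAT read on the other strand, at -35 from the start, and CCAAT in either orientation occurs in 33.8% of 32851 RefSeq windows. The Btaf1 window holds TGACGTCA at -9, and 1.55% of windows hold it. The 2 windows share none of these motifs and differ in base composition, at 42.8% and 58.4% G and C.

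No other peptidase of Ide's list passed, at P0 or P14 (0 of 12 each time, with 2 and 1 at an unadjusted p under 0.05). The shares of all genes under that p were 16.1% at P0 and 15.2% at P14. Nrd1, which encodes nardilysin, a metallopeptidase of Ide's own family, was -0.14 (edgeR adjusted p = 0.339) at P0 and 0.01 (adjusted p = 0.957) at P14. Of the listed Ide substrates and insulin-family receptors, 0 of 8 passed at either age, with 3 and 1 at an unadjusted p under 0.05. The smallest edgeR adjusted p among those 8 was 0.0994 at P0 and 0.0586 at P14. Their log2 fold changes ran from -0.54 to 0.15 at P0 and from -0.15 to 0.41 at P14. App, the amyloid precursor, was -0.23 (adjusted p = 0.158) at P0, and the insulin receptor Insr was 0.15 (adjusted p = 0.458).

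Mir124a-1hg (ENSMUSG00000097545) is a lincRNA on the plus strand at chr14:64587331-64593961 and was 1 of the 2 genes higher in P0 knockouts. It was 83.2, 78.7 and 70.0 CPM in knockouts against 46.0, 51.4 and 52.9 in wild type. The groups were apart, the knockout mean was 154.4% of control, and the log2 fold change was 0.62 (SE 0.09). At P14 the host transcript was 140.2, 157.6 and 142.8 CPM in flox-het mice and 150.4, 165.6 and 122.9 in knockouts. Knockout replicate 3 was the lowest and replicate 2 the highest of the 6, and the difference was near 0 (0.0066, 95% interval -0.20 to 0.22, edgeR adjusted p = 0.985). The host transcript's P0 value, which chose it, lies outside that interval. The microRNA itself was not measured: its hairpin, Mir124a-1, and Mir3078, both inside the host, had no count in any library.

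Mir124-2hg, another annotated host of miR-124, was 131, 129 and 116 CPM in P0 knockouts and 98.0, 94.3 and 105 in wild type (0.34, edgeR adjusted p = 0.0612). All 3 knockouts were above all 3 controls, but the difference did not pass. At P14 Mir124-2hg rose, with 34.7, 30.8 and 29.9 CPM in knockouts against 22.7, 23.3 and 18.7 in flox-het mice (0.57, adjusted p = 0.00975), a call lost without knockout replicate 1. An unadjusted p under 0.05 was reached by 3 of 21 published miR-124 targets at P0 and 2 of 22 at P14. Over all genes the shares were 16.1% and 15.2%. The targets' medians were 0.03 and -0.08. At P0 1 target passed, being higher, and at P14 none did. The 1 was Lhx2, a transcription factor of forebrain progenitors, at 112, 120 and 122 CPM in P0 knockouts against 89.3, 79.4 and 93.2 in wild type (0.42, adjusted p = 0.0368). That call ended without knockout replicate 1 or 2 or wild-type replicate 1 or 2. Lhx2 is also 1 of 5 forebrain markers, which summed to 361 to 382 CPM in P0 knockouts and 267 to 310 in wild type. Ptbp1, the splicing repressor that miR-124 holds down in neurons, was 0.11 (adjusted p = 0.573) at P0 and 0.12 (adjusted p = 0.682) at P14.

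Rnf122 (ENSMUSG00000039328) lies on the plus strand at chr8:31111820-31131482. P0 knockouts had 23.5, 25.1 and 21.7 CPM, and wild-type mice 13.3, 13.8 and 16.3. The lowest knockout was above the highest wild-type mouse, the knockout mean was 162.1% of control, and the log2 fold change was 0.68 (SE 0.12). At P14 flox-het mice had 22.6, 21.3 and 19.6 CPM and knockouts 17.4, 23.9 and 18.8. The groups overlapped (-0.07, 95% interval -0.32 to 0.19, edgeR adjusted p = 0.855), and the P0 value that chose the gene lies outside that interval. No other transmembrane RING ligase of the list passed (0 of 10 at each age, with 0 and 4 at an unadjusted p under 0.05). The shares of all genes under that p were 16.1% at P0 and 15.2% at P14. The closest relative, Rnf24, was 0.18 (adjusted p = 0.384) at P0 and 0.28 (adjusted p = 0.269) at P14. Dusp26, a phosphatase gene 14.8 kb away, did not pass at P0 (0.08, adjusted p = 0.743) and rose at P14 (0.62, adjusted p = 0.00725), from 40.1, 33.1 and 28.0 CPM to 51.9, 51.8 and 50.2. This P14 call ended without knockout replicate 1 or flox-het replicate 2.

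Dkkl1 (ENSMUSG00000030792) lies on the minus strand at chr7:45207519-45212147 and was the least counted of the 7, with 16 to 61 reads per library. Its P0 levels were 1.27, 1.32 and 1.33 CPM in knockouts and 4.28, 3.07 and 3.37 in wild type. The knockout mean was 36.6% of control, and the log2 fold change of -1.44 (SE 0.27) was the furthest from 0 in the set, with the widest error. P14 flox-het mice had 1.56, 1.62 and 1.53 CPM and knockouts 1.84, 1.62 and 2.92. Knockout replicate 3 was the high one and replicate 2 met the flox-het range to within rounding (0.43, 95% interval -0.19 to 1.05, edgeR adjusted p = 0.526). Without knockout replicate 3 the difference was 0.15, and on the larger strand column it was -0.13. The kit keeps no strand, so that column holds only part of the reads. At P14 these were 15, 10 and 20 in knockouts and 13, 17 and 18 in flox-het mice. Dkkl1's P0 value, which chose the gene and has an SE of 0.27, lies outside the 95% interval at P14.

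Wnt genes listed with Dkkl1 gave 0 of 10 calls at P0 and 1 of 10 at P14. At each age 2 had an unadjusted p under 0.05, against 16.1% and 15.2% of all genes. The P14 call was Lef1, a transcription factor at the end of the Wnt pathway. Lef1 fell from 5.65, 5.80 and 4.42 CPM to 2.14, 2.51 and 2.41 (-1.16, edgeR adjusted p = 0.00823). That call was lost without knockout replicate 1 or flox-het replicate 2. Lef1 is also expressed in the developing dentate gyrus, and the dentate marker sums given above differ between the same mice. Dkk3, a Dickkopf relative, was 0.26 (adjusted p = 0.183) at P0 and -0.05 (adjusted p = 0.774) at P14. Slc17a7, the vesicular glutamate transporter gene 31.4 kb from Dkkl1, was 46.2, 49.5 and 54.6 CPM in P0 knockouts against 75.9, 61.3 and 79.9 in wild type (-0.54, adjusted p = 0.0368). That call ended in 5 of 6 cases when 1 library was left out, all but knockout replicate 3. At P14 Slc17a7 was 0.04 (adjusted p = 0.857).

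A830018L16Rik (ENSMUSG00000057715) lies on the plus strand at chr1:11414105-11975901. P0 knockouts had 20.3, 21.2 and 24.3 CPM and wild-type mice 39.5, 38.8 and 38.0. Wild-type values lay within 2 CPM of each other and far above the knockouts, at a log2 fold change of -0.82 (SE 0.10) and a knockout mean of 56.6% of control. At P14 its level was much higher, with 114, 108 and 101.8 CPM in flox-het mice and 111.4, 105.7 and 111.1 in knockouts. The P14 groups overlapped almost wholly (0.03, 95% interval -0.12 to 0.18, edgeR adjusted p = 0.889), and the P0 value that chose the gene is outside that interval. Prex2, a Rac exchange factor gene 110.4 kb away, had negative values that did not pass at either age (-0.70, adjusted p = 0.0565 at P0, and -0.25, adjusted p = 0.0968 at P14).

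Counted over the set, 0 of 7 genes passed at P14 by edgeR and 0 of 7 by DESeq2, where 1.99% of all genes passed by edgeR (0.773% lower and 1.21% higher). An unadjusted p under 0.05 was reached by 1 of 7, Necab1, against 15.2% of all genes. P14 values did not overlap for 2 of 7, Necab1 and Dkkl1, both higher, against 20% of all genes (10.6% lower and 9.41% higher). The Ide and Dkkl1 intervals are the widest, and Ide's runs from -0.41 to 0.66. The P0 values set against P14 intervals above chose the genes and carry their own error. Differences between the ages were not tested.

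**Figure D3:**
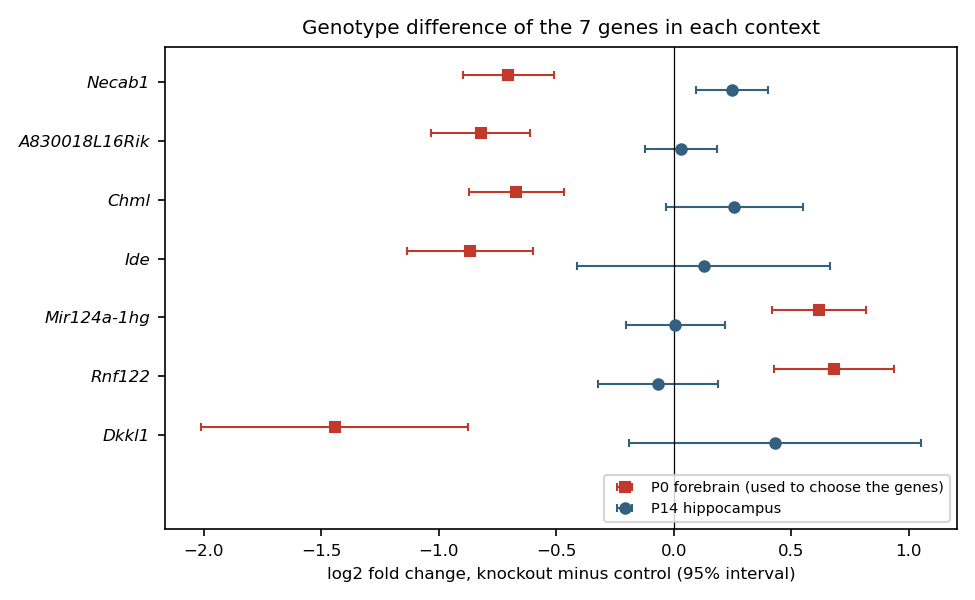
Log2 fold change, knockout minus control, with 95% intervals, for each gene at P0 (squares, the comparison that chose the genes) and P14 (circles). P14 intervals span 0 for every gene except Necab1 (0.09 to 0.40).

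Between the control groups, 3 genes were higher in P14 flox-het hippocampus than in P0 wild-type forebrain without overlap, where 34% of all genes were. Mir124a-1hg was 2.93-fold higher, A830018L16Rik 2.78-fold and Rnf122 1.47-fold. Another 3 were lower without overlap, against 33.7% of all genes. Dkkl1 was 2.28-fold lower, Chml 2.17-fold and Necab1 1.55-fold. Ide overlapped between the ages. Of the 5 genes lower in P0 knockouts, Necab1, Chml and Dkkl1 were lower in the P14 controls, A830018L16Rik was higher and Ide was neither. The P0 wild-type values entered the choice of these genes, so nothing is read from that split.

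Within 1 Mb of the 7 genes, 3 of 140 tested neighbours passed at P0 (2.14%, against 0.909% of all genes) and 2 of 153 at P14 (1.31%, against 1.99%). At P0 these were Calb1, Btaf1 and Slc17a7, each lower like the gene it neighbours, and at P14 Calb1 and Dusp26. Of all 124 genes off chromosome 5 that passed at P0, 98 were lower, so nothing is read from the shared direction. Of the 140 neighbours tested at P0, 79 lie near Dkkl1. The fits that lost these calls are given above. Calb1 is 731.5 kb from Necab1. Among the nearest genes tested at P0 on either side of each member, Slc17a7 passed and the others did not. On its other side Dkkl1 sits 3.6 kb from Tead2, which was 0.06 (edgeR adjusted p = 0.826).

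**Figure D4:**
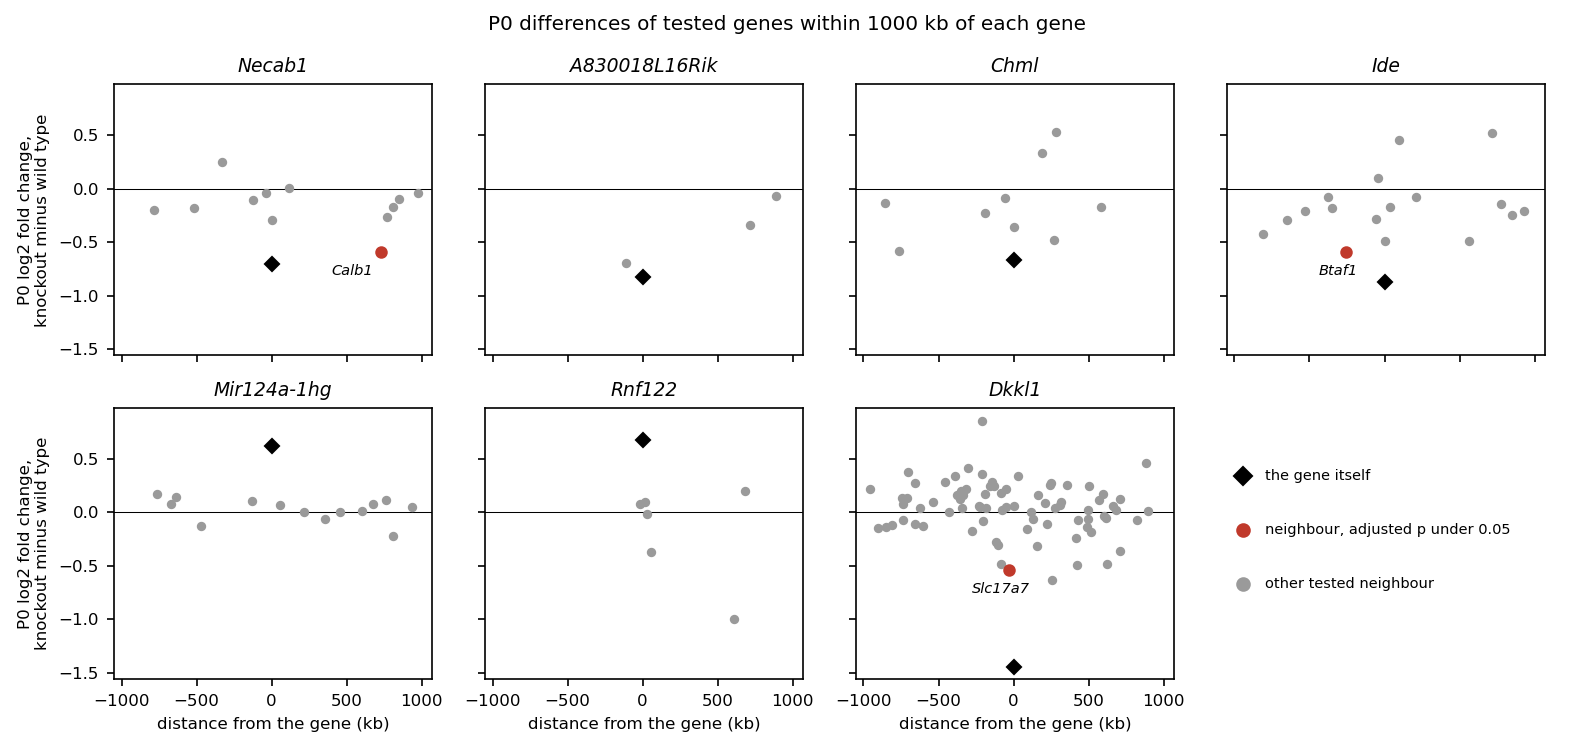
P0 log2 fold change (knockout minus wild type) of every tested gene within 1 Mb of each of the 7 genes, against distance in kb. Red points passed an adjusted p of 0.05 (Calb1, Btaf1, Slc17a7), grey points did not, and the black diamond is the gene itself.

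The P0 libraries carry 2 stretches of library numbers, 1407 to 1410 and 1415 to 1416, each with both genotypes. In the first, with 2 mice per genotype, log2 fold changes were -0.72 for Necab1, -0.70 for Chml, -0.96 for Ide, -0.91 for A830018L16Rik and -1.49 for Dkkl1. The single pair in the second, as a plain log2 ratio of CPM and not an edgeR fit, gave -0.66, -0.59, -0.70, -0.65 and -1.34. For Mir124a-1hg the values were 0.74 and 0.40, and for Rnf122 0.84 and 0.42. Every sign was the same in both stretches, but these are the libraries that chose the genes, so the shared sign is no separate support. All 7 values were nearer 0 in the second, which has 1 mouse per genotype and was measured in another way.

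Cell type marker sums also differed at P0. Of 14 marker lists, 7 did not overlap between genotypes. Cortical excitatory (1054 to 1167 CPM in knockouts, 776 to 998 in wild type), forebrain and choroid plexus (901 to 994, 667 to 846) sums were higher. The cortical excitatory list was not uniform: Fezf2 rose (0.42, edgeR adjusted p = 0.0427), while Slc17a7, described above beside Dkkl1, fell. Of 6 choroid plexus markers tested, 5 had positive values, the lowest was -0.68 and none passed. Striatal projection (179 to 188, 197 to 237), dentate granule (93.9 to 107, 113 to 131), astrocyte (374.5 to 384, 419 to 564) and oligodendrocyte lineage (251 to 259, 281 to 308) sums were lower. Positive values were found for 3 of 8 striatal, 0 of 5 dentate, 1 of 6 astrocyte and 2 of 7 oligodendrocyte markers tested. Their part in the P0 differences of the 7 genes was not tested. At P14, 4 of 14 did not overlap: the dentate granule list above, striatal projection (111 to 198 in knockouts, 73.4 to 103 in flox-het), endothelial (242 to 270, 293 to 315) and the nearly silent hindbrain list. Choroid plexus sums overlapped at P14 and varied widely, from 149 to 2540 CPM in flox-het mice and 1364 to 2023 in knockouts.

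Across the 12 libraries, the protein-coding genes most like each member were taken from 12903 (12904 for the noncoding Mir124a-1hg) by Pearson's r of log2 CPM. The 12 points share 2 ages, 2 tissues and the genotype contrast that chose the genes, so r describes likeness and carries no p. A830018L16Rik had the closest, Cadps2 and Cdkl2 (r = 0.99), followed by Dnajc28 for Mir124a-1hg (0.98) and Pcyt1b for Chml (0.96). Ide was most like Scarb1 (0.94) and Sv2c (0.93), and Rnf122 most like Zfp664 (0.92). Cdkl2, Scarb1 and Zfp664 lie on chromosome 5, as Auts2 does. Necab1 and Dkkl1 were each among the other's 3 nearest (0.92), with Smap1 the nearest to Necab1 (0.92). Cadps2, which acts in the release of dense-core vesicles, was -0.78 at P0 (edgeR adjusted p = 0.0208) and 0.06 at P14 (adjusted p = 0.765). Sv2c, a synaptic vesicle protein, was -0.66 (adjusted p = 0.0197) and 0.22 (adjusted p = 0.350). Cdh6, a cadherin and the third nearest to Chml, was -0.63 (adjusted p = 0.0178) and 0.34 (adjusted p = 0.110). Cdkl2 (-0.46, adjusted p = 0.0295) and Smap1 (-0.45, adjusted p = 0.0483) also passed at P0. Scarb1 (-0.38, adjusted p = 0.128), Pcyt1b (-0.22, adjusted p = 0.155), Dnajc28 (0.42, adjusted p = 0.272) and Zfp664 (0.22, adjusted p = 0.179) did not. These genes were found by their likeness to members, so their P0 values are no separate support.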

How the data were processed

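The deposited files hold raw read counts per gene from the authors' alignment of 12 libraries, per the file headers and layout as STAR's gene count output. STAR 2.7.5a and edgeR 3.12 are named per the submitters' processing notes. The unstranded count column was used, since the kit does not keep strand. Replicates are individual mice per the labels. Counts were fitted at each age separately in edgeR 4.0.16 (R 4.3.3) with filterByExpr, TMM and the robust quasi-likelihood test, with Benjamini-Hochberg adjustment over all genes tested and a threshold of 0.05. CPM use 1 TMM scale over the 12 libraries, and RPKM divide CPM by the union of annotated exons (GENCODE vM21, GRCm38), while the authors counted on GRCm38 models of release 102, per the file names in the deposit. DESeq2 1.42.0, other filters and scalings, and leaving out each library were tried as alternatives.

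The members, the gene lists and the markers were chosen with earlier results of these data known. Named genes are the 7 members, Auts2, every listed pathway gene that passed and the closest relatives of each member, overlapping and nearest genes, and the 3 protein-coding genes most like each member. Btaf1 and Slc17a7 (passing neighbours), Cpeb3, App, Insr and the markers named were added after their values were seen. RefSeq upstream windows (GRCm38.p6) were available for 3 of the 7 genes, Chml, Ide and Dkkl1. Of these only Ide's was searched and shown, with that of Btaf1. Total counts limit the precision for Dkkl1, the least counted of them.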

Additional observations from a re-analysis of the deposited data

Results flagged for a closer look

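Among the members, Auts2 and the relatives, neighbours and listed genes examined library by library, 4 switched sides between the ages. In these, every knockout lay on one side of all its controls at P0 and on the other side at P14. Over all tested genes, the genotypes did not overlap for 21.8% at P0 and 20% at P14, in either direction. The share of all genes that switched sides was not counted, so the 4 are not read as an excess. The difference between the ages was not tested. Its size, P14 minus P0 log2 fold change, was 0.95 for Necab1, 1.88 for Dkkl1 and 0.80 for Necab3, which were lower in all P0 and higher in all P14 knockouts. For Auts2, higher in P0 and lower in P14 knockouts, it was -0.46. The P0 values of Necab1 and Dkkl1 are those that chose them. Dkkl1's P14 groups are apart by less than 0.01 CPM. Its P14 log2 fold change of 0.43 was 0.15 without knockout replicate 3 and -0.13 on the larger strand column, with 10 to 20 reads per library. Necab1's P14 value of 0.25 was 0.14 on that column. Age, tissue, Cre line and control genotype differ together between these contrasts and cannot be told apart.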

How the results depend on the processing

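All 7 genes kept their P0 direction in the 105 alternative values, of which 27 no longer passed the threshold. These values refit the libraries whose P0 difference chose the genes, so the kept direction is no separate support. At P14, 9 of 91 alternative values for the 7 genes turned sign and 1, Necab1 without flox-het replicate 3, passed the threshold, so the count of members called at P14 ran from 0 to 1 as libraries were left out. The P14 value of Mir124a-1hg was -0.0040 in 1 fit on all 12 libraries and -0.088 to 0.11 as libraries were left out, and that of Dkkl1 was -0.13 on the larger strand column and 0.15 to 0.60 as libraries were left out. Necab1's was 0.14 on that column, and Chml's ran from 0.12 to 0.39. Leaving out libraries gave -0.21 to 0.024 for Rnf122, -0.078 to 0.29 for Ide, -0.0040 to 0.067 for A830018L16Rik, -0.14 to 0.27 for Btaf1, -0.011 to 0.076 for Slc17a7 and -0.18 to 0.039 for Vsnl1 at P14. Dusp26 at P0 ran from -0.049 to 0.17, and was -0.071 in the first stretch of library numbers alone. Ide's log2 ratio between the controls of the ages ran from -0.079 to 0.28. Genes passing at P0 numbered 382 by DESeq2, 625 with no filter on low counts, 50 without the robust fit, 284 in 1 fit on all 12 libraries, 465 with that stretch as a term, 2107 in the first stretch alone and 1 to 775 as libraries were left out. In the same order the 3 pathway genes became 7, 8, 1, 6, 7, 23 and 0 to 9. At P14 the count was 534 by DESeq2, 814 with no filter and 104 to 1808 as libraries were left out, and the 5 pathway genes became 8, 14 and 0 to 24, with 3 without the robust fit and 2 on the larger strand column. Where an arm held 1 library less, fewer samples carried the fit, and the cause of other changes was not tested. No paired analysis was possible because replicate numbers follow the order of the records and the labels pair no mice. The first-series fit has 2 libraries per genotype. Low counts limit Dkkl1 and Opn3.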
